A study of Drosophila melanogaster with 24 samples.

Results

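The embryos of brat mutant females were compared with wild-type embryos at 1.5-3 h after egg laying, when zygotic transcription begins on a large scale and many maternal mRNAs are removed. The comparison used the 3 brat mutant and the 3 w1118 samples collected at that time, 6 of the 24 samples of a time course with 4 collection times. All 13633 genes of the array entered it, with the transcripts of a gene averaged. The mutant mothers carried the allele bratfs1, a missense change in the NHL domain, over the deficiency Df(2L)TE37C-7. They were mated to their brothers, most of which had bratfs1 or the deficiency over the CyO balancer. Segments of the abdomen were missing in these embryos, none of which became larvae. The wild-type embryos came from w1118 flies, and each of the 3 samples of a genotype was a biological replicate of whole embryos. The design thus altered the mother's genotype, and the embryos themselves were of mixed genotype. The deficiency and the balancer also set these parents apart from w1118, and their effects and those of bratfs1 cannot be told apart. In RNA from whole embryos, fewer cells of a type and less RNA per cell cannot be told apart either.

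BRAT (Brain tumor) is an RNA-binding protein of the TRIM-NHL family. With Pumilio and Nanos it represses maternal hunchback mRNA in the posterior of the embryo, and it helps to remove many other maternal mRNAs. A fly embryo first lives on mRNAs that the mother loaded into the egg. During the maternal-to-zygotic transition these are degraded while the embryo's own genome is switched on, first with a small group of blastoderm genes and then with the genes that pattern and build the tissues of the gastrula.

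Values are log2 signal intensities, normalized by the authors over all samples together, so a difference of 1 is a 2-fold change. Sample medians lay between 8.72 and 8.77. A gene was taken as well above background when it exceeded the mean of all transcripts, which was 9.55 to 9.57 in the 6 samples. By this measure 3992 genes were expressed in brat mutant and 4042 in wild-type embryos. Over the genes above that mean in at least 1 group, Pearson's correlation between replicates was 0.941 to 0.954, and that between genotypes was 0.864 to 0.916. brat mutant replicates 1 and 3 and w1118 replicate 2 were labelled with Cy3 and the others with Cy5, so the dyes were not balanced between genotypes. Medians within each dye are given beside most gene groups. Within Cy3 there was 1 w1118 sample, and within Cy5 there was 1 brat mutant sample. These medians divide the same 6 samples and are not independent of the main result. The blastoderm markers, which wild-type embryos transcribe for a short time only, had a median level of 13.25 in w1118 at 1.5-3 h, far above the 9.16 at 0-1.5 h and 9.48 at 3-4.5 h.

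At an FDR of 5% in limma, levels were raised for 159 genes and reduced for 125 in brat mutant embryos, 1.17% and 0.917% of the genes tested. These 284 genes were 2.08% of the array. In all of them the 3 brat mutant samples lay on one side of the 3 w1118 samples, which was also so for 9.15% (brat mutant above) and 10.8% (brat mutant below) of all genes. At least a 2-fold change was fitted for 154 of the genes that rose and 115 of those that fell, and the median of all genes was −0.03. The mutated gene itself did not pass. brat mRNA was at 13.94, 13.85 and 13.72 in brat mutant samples, against 13.51, 13.78 and 13.89 in w1118 samples (log2 fold change 0.11, standard error 0.21, adjusted p = 0.86). A missense allele need not alter the level of its mRNA, and the effect of the deficiency on that level was not tested. The brat mRNA level therefore does not check the labels. At 0-1.5 h brat had a log2 fold change of −0.67 (adjusted p = 0.118). Nor did hb, the textbook target of BRAT, pass, with 13.95, 13.85 and 13.7 in brat mutant and 13.36, 13.57 and 14.01 in w1118 samples (0.18, standard error 0.23, adjusted p = 0.781). By the study's account the array does not separate maternal from zygotic hb mRNA, so this value is their sum and does not give the level of the maternal target. With RT-qPCR at this time the study reported the maternal hb isoform as higher and the zygotic isoform as lower in brat mutant embryos.

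To see which kinds of mRNA these were, genes were sorted by their behaviour in wild-type embryos at the other 3 times, without the samples compared here. Early zygotic genes rose at least 2-fold between 0-1.5 h and 3-4.5 h and late zygotic genes between 3-4.5 h and 4.5-6 h. Maternal mRNAs were present at 0-1.5 h and either fell at least 2-fold by 3-4.5 h (lost) or moved by less than 0.5 on the log2 scale (stable). Levels at 1.5-3 h did not enter this rule, so an mRNA of the stable class may have fallen and risen again in between. Of 696 early zygotic genes, 77 were higher in brat mutant embryos and 9 lower, 11.1% and 1.29%. Their median level was 11.14, 11.17 and 11.35 in brat mutant samples and 10.81, 10.78 and 10.91 in w1118 samples. The 2 sets of samples did not overlap, and the median log2 fold change was 0.31, with 0.38 within Cy3 and 0.28 within Cy5. Late zygotic genes, 69 in number, were 9 higher and 0 lower. They were at 9.2, 9.41 and 9.81 in brat mutant samples, against 8.75, 8.76 and 8.76 in w1118 samples, a median log2 fold change of 0.56 (0.54 within Cy3, 0.61 within Cy5). Maternal mRNAs that wild-type embryos lose went the other way: of 1296 genes, 55 were lower and 20 higher (4.24% and 1.54%), with a median of −0.21. That median was −0.35 within Cy3 and −0.12 within Cy5. Stable maternal mRNAs, 1693 genes, had 18 lower and 12 higher and a median of −0.06 (−0.13 within Cy3, −0.03 within Cy5). With dye as a covariate 42 early zygotic, 5 late zygotic, 35 lost and 14 stable genes were called in either direction, against 86, 9, 75 and 30 without it, and without brat mutant replicate 3 there were 23, 4, 21 and 6. Both directions are those in which wild-type embryos themselves change with age at this stage. An advance in developmental stage and an effect on the mRNAs at a given stage cannot be told apart from these samples.

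**Figure D1:**
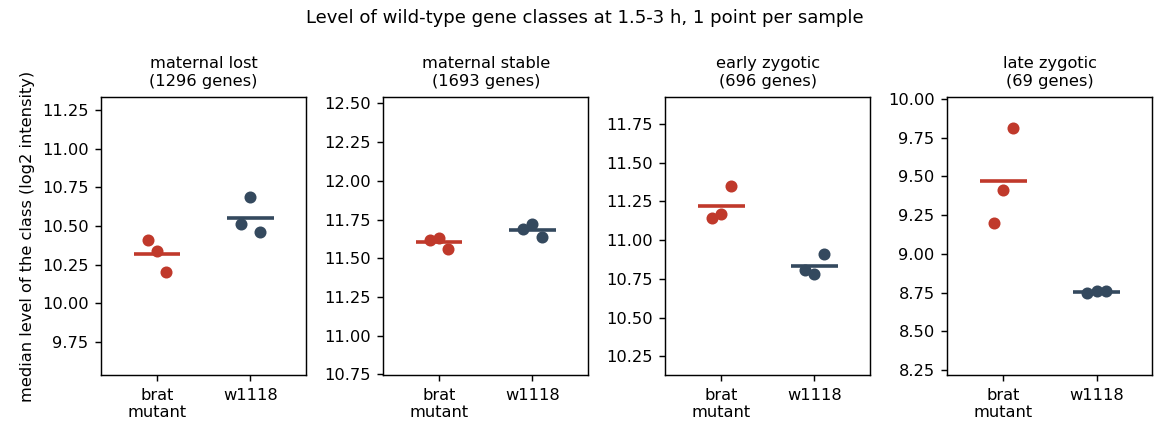
Median level (log2 intensity) of 4 gene classes at 1.5-3 h, with 1 point per sample and a line at the mean of 3 samples, brat mutant on the left and w1118 on the right of each panel. The early and late zygotic classes lie higher in all brat mutant samples than in any w1118 sample, and the lost and stable maternal classes lie slightly lower.

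The genes with the largest differences were a mixed group. Highest was CG12011, with 12.91, 12.94 and 14.33 in brat mutant and 10.02, 10.44 and 10.2 in w1118 samples (log2 fold change 3.17, adjusted p = 0.00278). CG31775 (3.01), CG9628 (2.67), CG12643 (2.67) and CG9184 (2.55) followed among the genes known only by number. The w1118 samples of CG31775 were widely spread (11.45, 11.12 and 9.38), and its call was lost without brat mutant replicate 3. drl encodes the Derailed receptor tyrosine kinase, a Wnt receptor that guides axons. It had 11.72, 11.73 and 12.13 in brat mutant and 9.02, 9.12 and 9.29 in w1118 samples (2.72, standard error 0.22, adjusted p = 0.000284). drl was thus well above the mean of the array in every brat mutant sample and below it in every w1118 sample. It also lies near brat on chromosome 2L. Of the 25 measured genes on each side of brat it was the 1 that was called, and the median of those 50 genes was 0. Slc45-1, a sugar transporter, had 11.07, 10.48 and 11.8 in brat mutant and 7.67, 8.83 and 8.61 in w1118 samples (2.75). Of 30 solute carriers and sugar transporters 3 rose (the others were MFS14 at 1.14 and MFS10 at 1.06) and 0 fell, against 1.17% and 0.917% of all genes. The list median was 0.39 (0.45 within Cy3, 0.27 within Cy5), and with dye as a covariate Slc45-1 alone was called. Obp99a of the odorant-binding protein family (2.59) and the noncoding RNA CR10102 (2.53) were also among the 10 largest, but neither kept its call with dye. The w1118 samples of CR10102 were at 11.74, 11.9 and 9.96.

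Of the genes that fell, CG10928 fell the most, to 8.11, 8.15 and 8.98 in brat mutant samples, against 11.93, 11.03 and 12.42 in w1118 samples (−3.38, adjusted p = 0.00189). hpRNA:CR18854, a hairpin RNA that is a source of endogenous siRNAs, was at 8.37, 8.29 and 8.74 in brat mutant and 12.12, 11.84 and 11.28 in w1118 samples (−3.28, adjusted p = 0.000284). Both were near the lower end of the scale in the mutant samples and well above the mean of the array in w1118 samples. CG6180 (−2.87), CG8066 (−2.65), CG13032 (−2.46) and CG14111 (−2.46) fell as well. IP3K1, an inositol trisphosphate kinase, fell by 2.64. Of 75 called genes followed singly (those named here other than MFS10 and MFS14), 27 passed in each of the 6 fits that left out 1 sample, and the same 27 passed with dye as a covariate. They included drl, CG12011, Slc45-1, CG9628, CG12643, CG10928, hpRNA:CR18854, CG6180, IP3K1, CG8066 and CG13032. All 75 kept their direction in every such fit, but none of them overlapped between genotypes, so no such fit could have reversed it. With 1 sample left out, 50, 43 and 30 of the 75 passed without brat mutant replicates 1, 2 and 3, and 49, 37 and 49 without w1118 replicates 1, 2 and 3. brat mutant replicate 3 and w1118 replicate 2 thus mattered most to the calls.

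Targets of Notch signalling in the neurectoderm formed the group with the highest median of the lists examined. The Enhancer of split complex holds genes for bHLH repressors (HLH) and for small Bearded-type inhibitors of Notch signalling (BFM), which Notch switches on. Of 15 measured genes of this complex and of the Bearded family, 6 rose and 0 fell, against 1.17% of all genes that rose, and 12 had all brat mutant samples above all w1118 samples, against 9.15%. The median log2 fold change was 0.81 (0.93 within Cy3, 0.77 within Cy5). The mean level of the group was 11.26, 11.29 and 11.65 in brat mutant samples and 10.34, 10.31 and 10.53 in w1118 samples. E(spl)m5-HLH was at 12.16, 11.94 and 12.55 in brat mutant samples, against 10.05, 10.73 and 10.37 in w1118 samples (1.83, adjusted p = 0.00665). E(spl)mgamma-HLH was at 12.15, 12.83 and 13.03 in brat mutant and 10.03, 11.16 and 10.79 in w1118 samples (2.01, adjusted p = 0.0135). E(spl)m7-HLH (1.91), E(spl)mdelta-HLH (1.75), E(spl)malpha-BFM (1.57) and the gene listed as E(spl) (1.49) rose likewise, and none of the 6 overlapped between genotypes. All 6 were early zygotic. Tom, a Bearded-type gene that both genotypes expressed strongly, was at 14.86, 14.58 and 14.76 in brat mutant and 14.17, 13.93 and 14.36 in w1118 samples (0.58, adjusted p = 0.236). Without brat mutant replicate 3 only E(spl)m5-HLH passed. Without w1118 replicate 2 there were 3 calls, without the other samples 5 or 6, and with dye as a covariate 5.

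**Figure D2:**
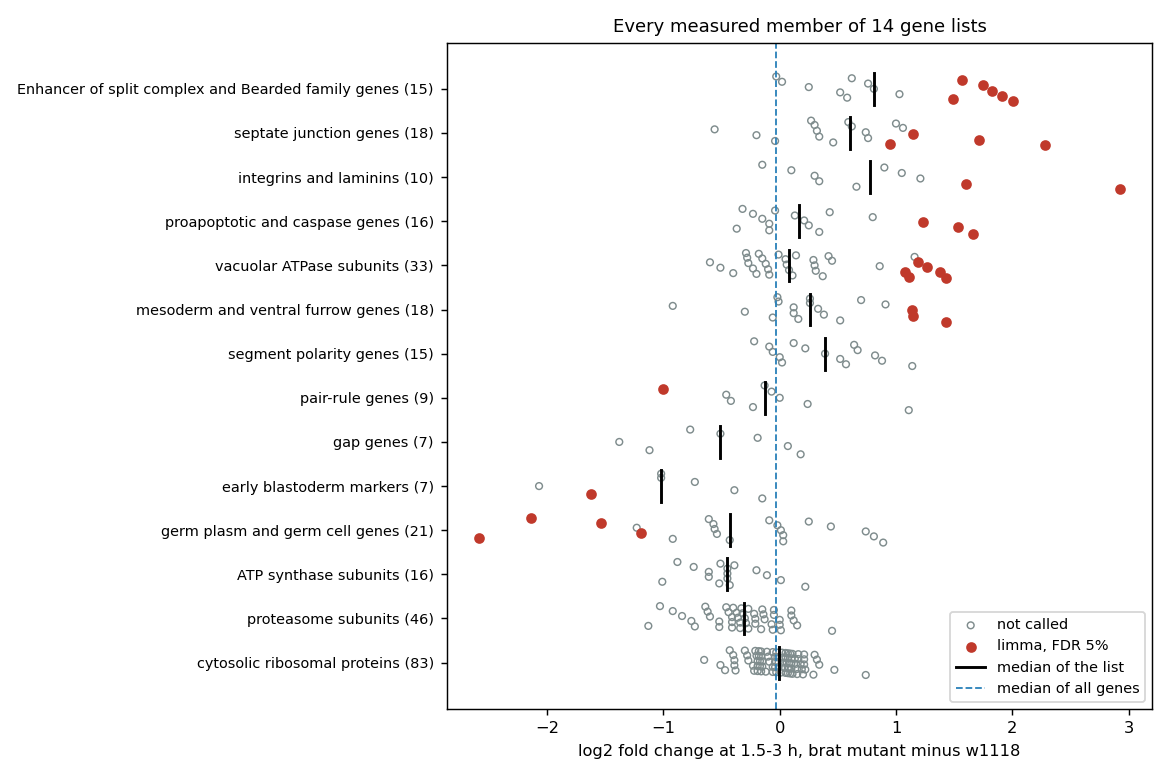
Log2 fold change at 1.5-3 h (brat mutant minus w1118) of every measured member of 14 gene lists, with list sizes in brackets. Filled points passed limma at an FDR of 5%, open points did not, black bars are the list medians and the dashed line is the median of all genes. Enhancer of split, septate junction and integrin and laminin genes lie to the right, blastoderm markers and germ plasm and germ cell genes to the left.

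Some genes for cell adhesion and the extracellular matrix also rose. Septate junctions seal the space between epithelial cells. Of 18 genes for their parts 4 rose and 0 fell, against 1.17% and 0.917% of all genes, with a median of 0.61 (0.58 within Cy3, 0.6 within Cy5). Of these 4, 2 were early and 1 late zygotic. nrv2, a beta subunit of the sodium pump that also builds the junction, had 12.32, 12.31 and 12.65 in brat mutant and 10.14, 10 and 10.32 in w1118 samples (2.28, standard error 0.21, adjusted p = 0.00116). cora, which encodes Coracle, a membrane skeleton protein of the junction, had 10.38, 10.32 and 11.19 in brat mutant and 9.06, 8.8 and 8.9 in w1118 samples (1.71, adjusted p = 0.0109). Both genes passed in every fit that left out a sample and with the dye covariate. Fas3 (1.15) and Nrg (0.95), which encode adhesion proteins, lost their calls with dye and in each of those 6 fits. sinu, which encodes a claudin, and Nrx-IV, which encodes a neurexin, had values of 1.06 and 1 without passing (adjusted p = 0.0564 and 0.0595).

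Laminins are the trimers on which basement membranes are built, and integrins are their receptors. Of 10 such genes 2 rose, both laminins, against 1.17% of all genes, and the median was 0.78 (0.93 within Cy3, 0.56 within Cy5). LanA was at 12.59, 12.36 and 13.04 in brat mutant samples, and at 11.1, 9.83 and 8.28 in w1118 samples (2.93, standard error 0.54, adjusted p = 0.0214). Its w1118 samples were widely spread, and it no longer passed with dye as a covariate or without any 1 of brat mutant replicates 1, 2 and 3 or w1118 replicate 2. LanB1 was at 13.22, 12.79 and 13.75 in brat mutant and 11.81, 11.5 and 11.64 in w1118 samples (1.6, adjusted p = 0.0138). It kept its call with dye but not without brat mutant replicate 3 or w1118 replicate 2, where the list had 0 calls. The third laminin chain, LanB2 (0.9, adjusted p = 0.115), and the integrin subunits mew (1.21, adjusted p = 0.0708), scb (1.05, adjusted p = 0.0547) and mys (0.66, adjusted p = 0.163) did not pass. In these 4 genes no brat mutant sample overlapped a w1118 sample. Of the 10 genes of the list 6 had all brat mutant samples above all w1118 samples, against 9.15% of all genes. Among genes picked out after their values were seen were those for the protocadherins ft (2.01) and ds (1.66), the growth regulator ex (1.10) and the glypicans dally (1.39) and dlp (1.14). They were chosen as called genes, so their number says nothing of a pathway. ds alone of them kept its call with dye and in every fit that left out a sample.

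Proton-pumping vacuolar ATPases acidify lysosomes and endosomes, with a ring of V1 subunits that split ATP and a V0 part in the membrane. Of 33 measured genes 6 rose and 0 fell, against 1.17% and 0.917% of all genes. The median over all 33, of which 16 were above the mean of the array, was 0.08 (0.1 within Cy3, 0.05 within Cy5). The 6 were maternal mRNAs that wild-type embryos lose, unlike the groups above. In the V1 part, Vha55 was at 13.73, 13.69 and 13.78 in brat mutant and 12.53, 12.8 and 12.3 in w1118 samples (1.19, adjusted p = 0.0193). Vha68-2 was at 13.1, 13.05 and 13.13 in brat mutant and 11.7, 12.36 and 11.9 in w1118 samples (1.11, adjusted p = 0.0324). The mutant samples of both genes lay close together, and all w1118 samples lay below them. Vha13 (1.27) and Vha36-1 (1.38) of V1 and VhaPPA1-1 (1.43) and VhaAC39-1 (1.08) of V0 rose as well. At 0-1.5 h Vha55 was at 13.91 in brat mutant and 13.7 in w1118 embryos, and at 3-4.5 h at 13.34 in brat mutant and 10.33 in w1118 embryos. ATP6AP2, an accessory protein of the pump, rose too (1.17, adjusted p = 0.0396), but lost its call with dye and without any 1 sample. Of the 6 mRNAs 5 were on the study's list of BRAT-associated mRNAs, made by immunoprecipitation of BRAT from wild-type embryos. Of the 33 genes, 12 were on it. With dye as a covariate 1 of the 6 calls was kept, that of Vha13. There were 0 calls without brat mutant replicate 1, without brat mutant replicate 2 and without w1118 replicate 3, and 1, 1 and 3 without brat mutant replicate 3, w1118 replicate 1 and w1118 replicate 2.

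Pgm1, phosphoglucomutase, was another maternal mRNA that wild-type embryos lose. It was at 12.61, 12.32 and 12.53 in brat mutant and 10.99, 11.15 and 10.61 in w1118 samples (1.57, adjusted p = 0.00808), and it kept its call with dye and in each fit that left out a sample.

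A few genes that start or block programmed cell death rose. The list of 16 had 3 higher and 0 lower, against 1.17% and 0.917% of all genes, with a median of 0.17 (0.12 within Cy3, 0.19 within Cy5). rpr, a killer gene that blocks the caspase inhibitor Diap1, was at 10.73, 10.75 and 10.55 in brat mutant and 9.57, 9.47 and 9.29 in w1118 samples (1.23, adjusted p = 0.0145). W, the symbol under which the killer gene hid is listed, was at 11.06, 11.05 and 10.83 in brat mutant and 9.01, 9.3 and 10.04 in w1118 samples (1.53, adjusted p = 0.0192). The 3rd was th, which encodes Diap1 itself and so has the opposite role. It was at 11.98, 12.02 and 12.5 in brat mutant and 10.48, 10.98 and 10.08 in w1118 samples (1.66, adjusted p = 0.0137). All 3 passed with dye, but 0 passed without brat mutant replicate 3, 1 without w1118 replicate 2 and 2 without any other sample.

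Among the genes of the germ layers a few members were higher. Of 18 mesoderm and ventral furrow genes 3 rose, against 1.17% of all genes, with a list median of 0.26 (0.37 within Cy3, 0.24 within Cy5). They were Mef2, the regulator of muscle differentiation (12.45, 12.37 and 13.22 in brat mutant against 10.9, 11.54 and 11.29 in w1118 samples, 1.43), stumps, an adaptor of the FGF receptor (1.15), and CadN, N-cadherin (1.14). The genes that act first in this tissue, twi (0.16, adjusted p = 0.783) and sna (0.12, adjusted p = 0.855), did not pass. The 3 calls were lost with dye. There were 2 calls without brat mutant replicate 2 and 2 without w1118 replicate 3, and 0 without any of the other 4 samples. In the neuroectoderm list 1 of 19 genes rose, the neuroblast gene ase, with 10.61, 11.16 and 10.86 in brat mutant and 9.54, 9.31 and 9.97 in w1118 samples (1.27, adjusted p = 0.0258). The median of that list was 0.24 (0.23 within Cy3, 0.12 within Cy5). Dorsal ectoderm genes had 1 call in each direction and a median of 0.35 (0.43 within Cy3, 0.27 within Cy5). Ance, a peptidase gene of the amnioserosa, rose, with 12.12, 12.39 and 12.69 in brat mutant and 11.41, 11.1 and 10.67 in w1118 samples (1.34, adjusted p = 0.0244). zen, the homeobox gene that specifies the amnioserosa, fell, with 10.13, 10.44 and 8.87 in brat mutant and 11.49, 11.86 and 11.61 in w1118 samples (−1.84, adjusted p = 0.0254). Neither kept its call with dye, and there were 0 calls in the list of 19 without brat mutant replicate 3, w1118 replicate 2 or w1118 replicate 3. Wnt4, a secreted Wnt, rose by 1.73 (adjusted p = 0.021) but not with dye. With drl it made up the 2 calls among 16 genes for Wnt ligands and receptors, against 2.08% called of all genes. The list median was 0.31 (0.36 within Cy3, 0.35 within Cy5). stg, the Cdc25 phosphatase that drives the mitoses after cellularization, was at 13.7, 13.77 and 13.92 in brat mutant and 12.59, 12.48 and 12.83 in w1118 samples (1.17, adjusted p = 0.0192). It was the 1 called gene of 10 Cdc25 genes and cell cycle brakes, and it kept its call with dye. It was also on the study's list of BRAT-associated mRNAs. stg and ase lost theirs without brat mutant replicate 2 or 3 and without w1118 replicate 1 or 2.

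**Figure D3:**
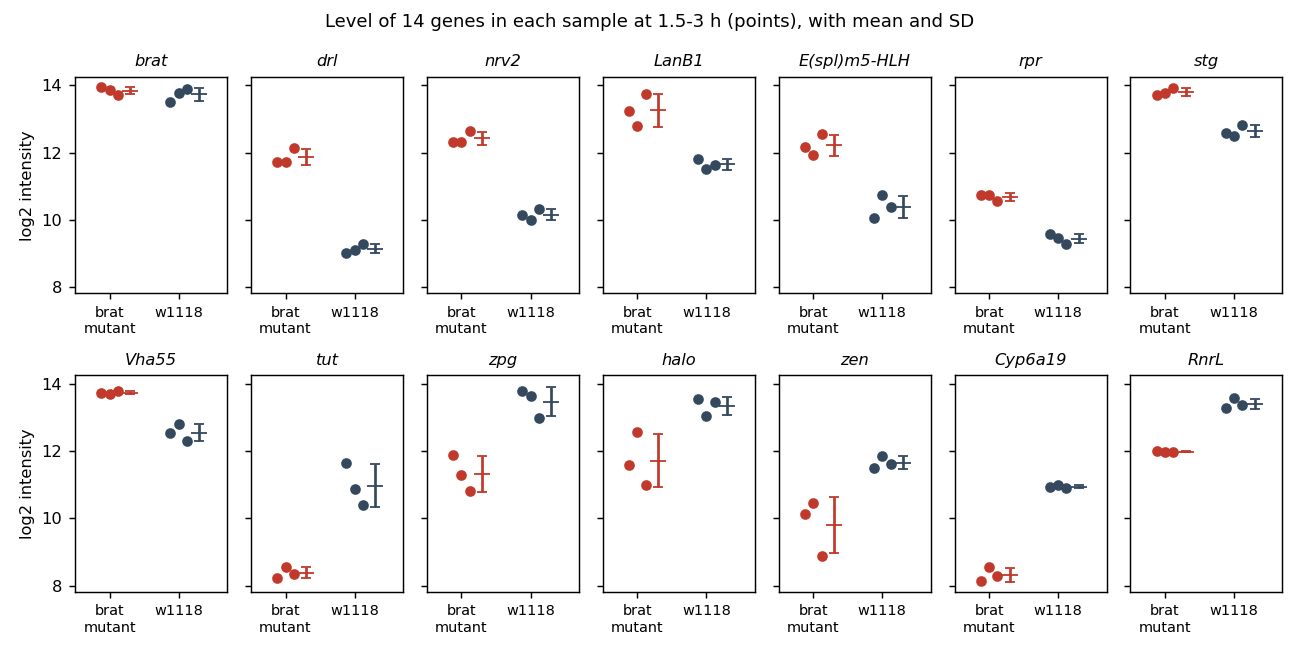
Level (log2 intensity) of 14 genes in each sample at 1.5-3 h as points, with the mean and SD of 3 samples, brat mutant on the left and w1118 on the right of each panel. The genotypes overlap for brat mRNA itself and are apart for the other 13 genes shown, higher in brat mutant embryos from drl to Vha55 and lower from tut to RnrL.

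The short-lived genes of the blastoderm had lower values, although 1 of them passed. nullo, Sry-alpha, bnk and slam organize the membrane as the syncytial embryo divides into cells, and halo controls lipid droplet transport at that time. All 7 markers of this stage had negative fold changes, with a median of −1.02 (−1.1 within Cy3, −0.52 within Cy5), and in 5 of them the brat mutant samples lay wholly below the w1118 samples, against 10.8% of all genes. Their mean level was 11.77, 12.06 and 11.05 in brat mutant samples and 12.67, 12.66 and 12.56 in w1118 samples. Only halo passed. It was at 11.57, 12.57 and 11 in brat mutant and 13.53, 13.04 and 13.44 in w1118 samples (−1.62, adjusted p = 0.0423). nullo was at 10.96, 11.73 and 9.17 in brat mutant and 12.77, 12.88 and 12.41 in w1118 samples (−2.07, adjusted p = 0.0649). brat mutant replicate 3 was the lowest and replicate 2 the highest of the mutant samples for both genes, and no mutant sample reached the w1118 range. Sry-alpha (−1.02, adjusted p = 0.0503) and slam (−1.02, adjusted p = 0.0848) did not pass. The call of halo was kept without brat mutant replicate 2, where 2 of the 7 passed, and was lost with dye and without any other 1 sample.

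Segmentation genes gave few calls. Gap genes divide the embryo into broad domains, and of 7 of them 0 passed, with a median of −0.51 (−0.61 within Cy3, −0.62 within Cy5). In 4 of the 7 the brat mutant samples lay wholly below w1118, against 10.8% of all genes. tll (−1.38, adjusted p = 0.0735) and kni (−1.12, adjusted p = 0.0592), which act in the termini and the abdomen, were the furthest from 0. kni was at 9.55, 9.21 and 9.58 in brat mutant samples, against 10.08, 10.57 and 11.05 in w1118 samples. Of 9 pair-rule genes 1 fell, eve, at 9.72, 10.05 and 10.15 in brat mutant and 11.08, 10.7 and 11.12 in w1118 samples (−1, adjusted p = 0.049), and it lost its call with dye and without any 1 of the 6 samples. The 15 segment polarity genes, which act later, had a median of 0.39 (0.57 within Cy3, 0.23 within Cy5) and 0 calls. Their largest value was that of en at 1.14 (adjusted p = 0.175). Hox and head genes (14) had a median of 0.32 (0.54 within Cy3, 0.3 within Cy5) and 0 calls, led by Ubx at 0.96 and Abd-B at 0.93 (adjusted p = 0.231 and 0.0502). At the unadjusted threshold of 0.05, limma gave 976 genes higher and 1020 lower over the whole array, so a list with 0 calls at the FDR can still hold genes that differ.

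Germ plasm mRNAs mark the posterior pole, from which the germ cells form. The list examined held germ cell genes as well as germ plasm mRNAs. Of its 21 genes 4 fell and 0 rose, against 0.917% of all genes that fell, with a median of −0.43 (−0.49 within Cy3, −0.28 within Cy5). tut, a translational repressor of germ cells, was at 8.23, 8.56 and 8.35 in brat mutant samples, near the lower end of the scale. It was at 11.65, 10.87 and 10.39 in w1118 samples (−2.59, adjusted p = 0.0036). Already at 0-1.5 h its mean was 8.32 in brat mutant and 12.1 in w1118 embryos. Of the 4 genes that fell it was the 1 also called at 0-1.5 h. zpg, the germline gap junction protein, was at 11.87, 11.28 and 10.81 in brat mutant and 13.79, 13.62 and 12.97 in w1118 samples (−2.14, adjusted p = 0.00808). Both passed with dye and in each fit that left out a sample. pgc, which keeps transcription off in germ cells, fell by 1.54 (adjusted p = 0.0214), and del, a piRNA factor, fell by 1.19 (adjusted p = 0.0246), and both lost their calls with dye and without most samples. Not every member had a negative value, and krimp (0.89, adjusted p = 0.174) and spn-E (0.74, adjusted p = 0.184) of the piRNA pathway were above 0. Likewise osk, which assembles the germ plasm, was at 13.02, 13 and 12.86 in brat mutant and 12.08, 12.5 and 11.88 in w1118 samples (0.81, adjusted p = 0.108). vas, a germ plasm helicase, had a value of −1.23 (adjusted p = 0.186). Maternal axis mRNAs (23 genes) had a median of 0.06 and 0 calls. The 25 measured genes for maternal mRNA repressors and decay factors had a median of −0.24 and 0 calls. BicC, picked after its values were seen, encodes an RNA-binding protein of oogenesis and fell by 1.43 (adjusted p = 0.0193).

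Lists of enzymes of energy metabolism held few calls. Acadvl and Mtpalpha, which oxidize long-chain fatty acids in mitochondria, fell by 1.51 and 1.2, and Echs1, an enoyl-CoA hydratase of the same pathway, fell by 1.62. These 3 were picked after their values were seen and stand for no list. Acadvl was at 12.01, 12.5 and 11.99 in brat mutant and 13.66, 13.39 and 13.97 in w1118 samples (adjusted p = 0.0135), and of the 3 it alone passed with dye. Of 15 glycolysis enzymes 1 fell, Eno, at 9.08, 9.35 and 9.63 in brat mutant and 10.45, 11.1 and 10.73 in w1118 samples (−1.41, adjusted p = 0.0177). RnrL, the large subunit of ribonucleotide reductase, which makes the precursors of DNA, was at 11.99, 11.97 and 11.96 in brat mutant and 13.28, 13.57 and 13.35 in w1118 samples (−1.43, adjusted p = 0.00758). It kept its call in every fit that left out a sample and with dye. CysRS, a tRNA synthetase, fell by 1.41 and the maternal tubulin alphaTub67C by 1.11. The medians of several complexes were below that of all genes: the 16 ATP synthase subunits had a median of −0.45, the 46 proteasome subunits −0.31 and the 40 NADH dehydrogenase subunits −0.26, with 1 call in these lists, ND-PDSW (−0.93, adjusted p = 0.0397), which was lost with dye and without any 1 sample. Within Cy3 and within Cy5 these medians were −0.49 and −0.43, −0.32 and −0.35, and −0.28 and −0.18. In 14 of the 46 proteasome genes the brat mutant samples lay wholly below w1118 and in 0 wholly above, against 10.8% and 9.15% of all genes. The 83 cytosolic ribosomal protein genes had a median of −0.01 and 0 calls.

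Cytochrome P450 genes, which oxidize hormones, toxins and fatty acids, had calls in both directions. Of 81 genes 2 rose and 3 fell, against 1.17% and 0.917% of all genes, and the median was −0.02 (0.07 within Cy3, −0.03 within Cy5). Cyp6a19 was at 8.13, 8.55 and 8.29 in brat mutant samples and at 10.93, 10.99 and 10.89 in w1118 samples (−2.61, standard error 0.21, adjusted p = 0.000284). Cyp12d1-d (−2.56) and Cyp12d1-p (−2.31) fell as well. They are near-identical copies whose signals the array may not separate, so that they may be 1 observation. These 3 calls held with dye and in each fit that left out a sample. Cyp6a20 (1.46) and Cyp6d5 (1.34) rose, and Cyp6d5 lost its call with dye and without any 1 sample. hpRNA:CR18854 was 1 of 5 calls, 2 higher and 3 lower, among 119 hairpin and long noncoding RNAs (median −0.04). The shares over all genes were 1.17% higher and 0.917% lower.

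Markers of other cells or ages were examined beside these groups. Of 8 genes of differentiated muscle 0 passed, but all had positive values (median 0.8, with 0.93 within Cy3 and 0.45 within Cy5), led by Mhc, at 9.54, 9.64 and 10.23 in brat mutant and 8.78, 8.91 and 8.37 in w1118 samples (1.12, adjusted p = 0.0503). Their mean was 9.68, 9.44 and 10.28 in brat mutant and 9.53, 9.06 and 8.46 in w1118 samples, which overlap, and 1 of the 8 was above the mean of the array. The median of the 8 was 0.41 at 0-1.5 h, 1.28 at 3-4.5 h and 1.61 at 4.5-6 h. Of 119 cuticle protein genes, which older embryos express, 0 passed, with a median of 0.04. In 11 of them the brat mutant samples lay wholly above w1118, a share near the 9.15% of all genes. Lcp65Ag1 was at 13.04, 12.77 and 14.11 in brat mutant and 11.83, 11.13 and 7.85 in w1118 samples (3.04, adjusted p = 0.0879). Lcp65Ag3 was at 12.76, 12.88 and 13.5 in brat mutant and 11.84, 10.57 and 8.31 in w1118 samples (2.81, adjusted p = 0.0585). Neither gene overlapped between genotypes, and w1118 replicate 3 was the lowest for both. The part of embryos older than the labelled window in these results was not tested. The neuronal gene elav was at 10.81, 11.17 and 11.98 in brat mutant and 9.45, 9.94 and 10.79 in w1118 samples (1.26, adjusted p = 0.128), which did not overlap, while the 5 nervous system markers had a median of −0.06 and the 13 ovary and follicle cell markers 0.12, with 0 calls and 0 of the 13 above the mean of the array.

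BRAT-associated mRNAs, as the study defined them by immunoprecipitation, were looked up by name. Of 1170 measured genes 37 rose (3.16%) and 14 fell, with a median of 0.04. Over all genes 1.17% rose and 0.917% fell. The split by class was uneven. Among maternal mRNAs lost in wild-type embryos, the 357 BRAT-associated genes had 13 higher and 12 lower (median −0.05), and the 850 associated with neither BRAT nor PUM had 7 higher and 42 lower (median −0.26). Among stable maternal mRNAs the 241 BRAT-associated genes had 9 higher and 0 lower (median 0.12), and the 1339 associated with neither had 3 higher and 17 lower (median −0.1). Early zygotic genes gave 6 of 51 higher when BRAT-associated and 67 of 595 when associated with neither, 11.8% and 11.3%. These 2 shares were close, and most early zygotic genes, whether they rose or not, were not on the list. The differences between these shares were not tested. Of 623 PUM-associated genes 9 rose (1.44%) and 7 fell, with a median of −0.07. Pus10, a pseudouridine synthase and a BRAT-associated mRNA of the stable class, was among the genes that rose. It was at 11.83, 12.38 and 11.65 in brat mutant and 9.77, 9.11 and 10.09 in w1118 samples (2.3, adjusted p = 0.00484). Its w1118 mean was 11.22 at 0-1.5 h, 9.65 at 1.5-3 h and 10.8 at 3-4.5 h, so it dipped in wild-type embryos at this time.

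The same limma test called 200 genes higher and 122 lower at 0-1.5 h (1.47% and 0.895%), 76 and 47 at 3-4.5 h (0.557% and 0.345%) and 316 and 191 at 4.5-6 h (2.32% and 1.4%). Of the 159 genes higher at 1.5-3 h, 69 were called in the same direction at 0-1.5 h and 27 at 3-4.5 h, and of the 125 lower ones 24 and 15. The effect at 1.5-3 h was set against that at the neighbouring times in 1 fit of all 24 samples, each time with its own control samples. Both comparisons of times share the samples at 1.5-3 h. For 41 genes (0.301%) it differed from that at 0-1.5 h, 16 more positive and 25 more negative, and for 121 genes (0.888%) from that at 3-4.5 h, 57 more positive and 64 more negative. Against 0-1.5 h, 15 of the 25 were early zygotic. halo belonged to these, with an effect of −1.62 at 1.5-3 h and 1.08 at 0-1.5 h (difference −2.7, adjusted p = 0.00904). bnb had 0.11 and 2.56 (difference −2.46, adjusted p = 0.00123). The 7 blastoderm markers had a median of 0.82 at 0-1.5 h, where halo (adjusted p = 0.0667) and the others named here did not pass and sisA was at −0.17, and medians of −1.02 at 1.5-3 h and −0.63 at 3-4.5 h. Against 3-4.5 h, 43 of the 57 more positive genes were early zygotic and 53 of the 64 more negative ones were maternal mRNAs lost in wild type. drl had 2.72 at 1.5-3 h and −0.07 at 3-4.5 h (difference 2.79, adjusted p = 3.07e-05), and nrv2 had 2.28 and 0.2 (difference 2.08, adjusted p = 0.0009). Vha55 turned the other way, with 1.19 at 1.5-3 h and 3.01 at 3-4.5 h (difference −1.82, adjusted p = 0.0269). Enhancer of split and Bearded genes had medians of 1.08, 0.81, −0.09 and −0.14 at the 4 times. Their median level over the 4 times was 10.05, 11.87, 12.91 and 13.23 in brat mutant embryos, against 8.72, 10.22, 13.04 and 13.62 in w1118 embryos. The mutant level was thus the higher one at the earlier times and not at the later ones. The gene classes were drawn from w1118 samples at the other 3 times, so the counts by class in these tests and the class medians at those times (early zygotic 0.46 at 0-1.5 h, −0.28 at 3-4.5 h and −0.29 at 4.5-6 h) share samples with the rule that made them.

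**Figure D4:**
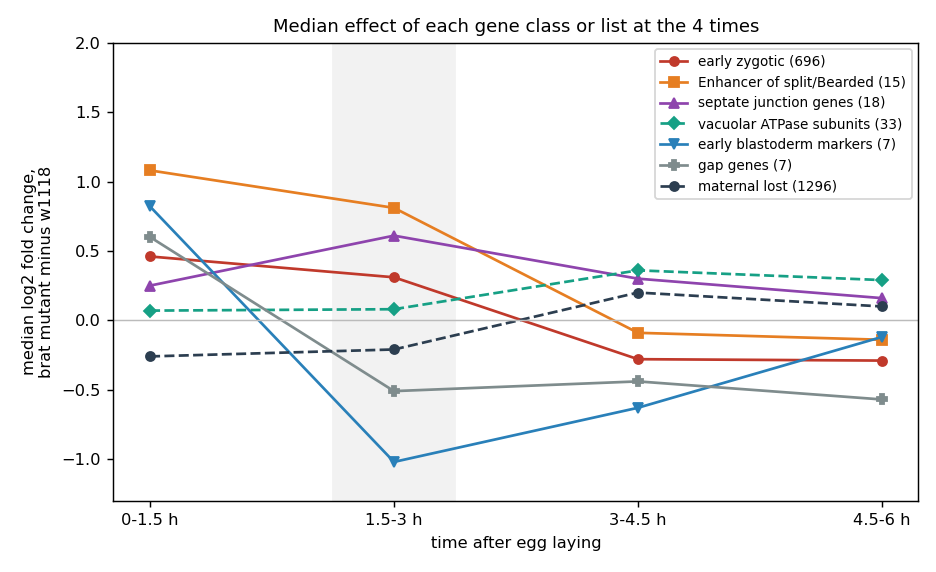
Median log2 fold change (brat mutant minus w1118, y axis) of gene classes and lists at the 4 collection times (x axis), with 1.5-3 h shaded and list sizes in brackets. Enhancer of split and septate junction genes have their highest medians at or before 1.5-3 h, vacuolar ATPase subunits and lost maternal mRNAs reach theirs at 3-4.5 h, and the median of the blastoderm markers changes sign between 0-1.5 h (0.82) and 1.5-3 h (−1.02).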

How the data were processed

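Total RNA of whole embryos was made into double-stranded cDNA, labelled with Cy3 or Cy5 and hybridized to custom NimbleGen arrays, 1 sample in each dye per array. Scans were read in Nimblescan. The authors ran RMA in ArrayStar on the 24 samples as one set, with quantile normalization, and the deposited values are log2 intensities, 1 per transcript and sample. The background correction, the arrays that samples shared and the use of strand are not given in the sources. Of 17775 transcripts 6 had no value and were left out. Symbols of 16965 of the other 17769 matched a RefSeq gene, 306 were ambiguous and 498 were not found (among them E(spl), th, W and CG10928), and these kept their deposited symbols. Transcripts of 1 symbol were averaged, which gave 13633 genes, 2537 of them from several transcripts. Arrays give no counts, and the 3 samples of each group limit the precision.

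The 6 samples at 1.5-3 h were fitted in limma 3.58.1 (R 4.3.3) by genotype, without covariates, with Benjamini-Hochberg adjustment over all 13633 genes and an FDR of 5%. All adjusted p-values given are from limma. It took the place of SAM, the study's test, which was run as an alternative. Differences between times were limma contrasts in a fit of all 24 samples. Fold changes are brat mutant minus w1118 on the log2 scale. Genes were expressed in a group when above the mean of all transcripts by a one-sided limma test. Lists are described by counts and medians beside those of all genes, with no test of the list. BRAT- and PUM-associated mRNAs were taken by name from the study's immunoprecipitations.

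The members and lists were chosen with earlier results of these data known. Genes were named by rule: brat and hb, the 10 largest and 10 smallest fold changes among called genes above the mean of the array, up to 4 called members of each list (or up to 2 with the largest values where none passed), and the 4 genes with the smallest p in each test between times. Others named were chosen after their values were seen: E(spl)malpha-BFM, E(spl), Tom, the remaining laminin, integrin, septate junction and vacuolar ATPase genes, ATP6AP2, twi, sna, the blastoderm markers other than halo, osk, vas, krimp, spn-E, BicC, Acadvl, Mtpalpha, Echs1, Cyp6d5, Pus10, and the 5 genes from ft to dlp. Deviations from group means correlated at 0.05, −0.08 and 0.06 between samples of the same replicate number. Such samples carried opposite dyes, and the arrays that samples shared are not given. These correlations therefore cannot exclude pairing by replicate number. Alternatives were SAM, expressed genes only, single transcripts, all 24 samples, dye, replicate number, limma-trend, 2 scalings, a minimum change of 1.5-fold, each sample left out, and a 4-fold class limit. Within-dye medians were added after seeing the data.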

Additional observations from a re-analysis of the deposited data

Results flagged for a closer look

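For the genes below, the difference between genotypes at 1.5-3 h was not the same as at a neighbouring time, by a limma contrast over 24 samples (adjusted over 13633 genes). The values are the effect at 1.5-3 h minus that at the other time, on the log2 scale, and no cause was tested.

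Against 0-1.5 h, the effect was more negative for CG15125 (−2.7), the blastoderm gene halo (−2.7), bnb (−2.46), CG8066 (−2.22), CG6180 (−2.12), the amnioserosa regulator zen (−1.88) and the fatty acid oxidation enzyme Acadvl (−1.31). It was more positive for IntS1 (2.23), a subunit of the Integrator complex, and for Pus10 (2.08). IntS1 was at 10.27, 9.97 and 9.66 in brat mutant and 8.19, 8.33 and 8.51 in w1118 samples at 1.5-3 h, and its w1118 mean was 10.39 at 0-1.5 h and 10.42 at 3-4.5 h, so that the w1118 samples at 1.5-3 h were the ones that stood apart. CG15125 was measured well above the rest in the w1118 samples at 1.5-3 h (11.05, 11.14 and 11.67) only. There its brat mutant samples were at 8.22, 9.63 and 8.82, and at the other times both genotypes had means of 8.03 to 8.51.

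Against 3-4.5 h, more positive effects were those of drl (2.79), E(spl) (2.14), nrv2 (2.08), Pus10 (2.07), E(spl)m5-HLH (1.99), CG12643 (1.96), E(spl)mgamma-HLH (1.94), E(spl)mdelta-HLH (1.9), the integrin mew (1.9), E(spl)m7-HLH (1.76), rpr (1.61), IntS1 (1.52), CadN (1.47) and th (1.3). More negative were CG10928 (−3.06), CG15125 (−2.55), Cyp6a19 (−2.3), tut (−2.28), CG6180 (−2.2), Vha55 (−1.82), Mtpalpha (−1.64) and Eno (−1.53). At 3-4.5 h the w1118 means of CG10928, tut, Cyp6a19, CG6180 and Eno were 8.83, 8.47, 8.58, 8.88 and 8.54. These lie near the lower end of the scale, where little decrease can be seen. In brat mutant embryos CG10928 and tut were at 8.2 and 8.32 already at 0-1.5 h, with effects of −3.12 and −3.78. The most negative difference against 3-4.5 h was that of nrv1 (−3.09, adjusted p = 7.81e-05). This gene encodes the other beta subunit of the sodium pump on the septate junction list. It was at 12.31 in brat mutant and 11.69 in w1118 embryos at 1.5-3 h (means of 3), and at 11.9 in brat mutant and 8.19 in w1118 embryos at 3-4.5 h. The effect on nrv1 was 1.96 at 4.5-6 h (adjusted p = 0.00488). That on nrv2 was 2.28 at 1.5-3 h and 2 at 0-1.5 h (adjusted p = 0.000588).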

How the results depend on the processing

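No call of the 284 changed sign under any alternative. In groups that do not overlap, leaving out 1 sample or adding dye could not change the sign. SAM, the replicate block and the minimum change use the same difference of means, so the sign was fixed there too. The number of calls depended on the model. Genes higher numbered 328 in 1 fit of all 24 samples, 70 with dye as a covariate and 10 with a minimum change of 1.5-fold, and 39 to 93 with each sample left out. Genes lower numbered 202 over expressed genes only, 259 in 1 fit of all 24 samples, 52 with dye, 13 with the minimum change and 198 with SAM, and 25 to 79 with each sample left out. Fewest of the 284 were kept without brat mutant replicate 3 (64) and without w1118 replicate 2 (95), against 128 to 143 without any other sample. With dye 117 were kept, in all 24 samples 269 and with SAM 284. The replicate number as a block, which may or may not mark a pairing here, gave 248 calls, 221 of them shared. Median centring and ribosomal protein scaling shared 284 and 271, and moved the median of all genes by at most 0.03. Of the 75 called genes followed singly, 44 kept their call with dye, 66 with the replicate block and 17 with the minimum change.

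Genes whose effect differed from 0-1.5 h numbered 85 over expressed genes only and 11 to 64 with each sample left out, and from 3-4.5 h 313 and 38 to 118. With the replicate block within genotype they numbered 49 and 160. With a 4-fold class limit the median was 0.56 for early zygotic and 0.77 for late zygotic genes. With each sample left out the class medians ranged from 0.27 to 0.35 (early zygotic) and −0.26 to −0.14 (maternal lost). Dye was unbalanced between genotypes, so its effect and that of genotype were separable in part only, and values at the lower end of the scale limit the fold changes that can be seen.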
